A study of Mus musculus with 16 samples.

Results

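The enzymes that write, copy and remove DNA methylation were followed in sorted mouse blood stem cells and in pluripotent cells. They comprise 8 genes, Dnmt1, Uhrf1, Dnmt3a, Dnmt3b, Dnmt3l, Tet1, Tet2 and Tet3, chosen by symbol and not by their values. Every probe set annotated with a single one of these symbols was taken, which gave 20 probe sets of 34945 with a single symbol, or 8 of 18193 genes. All 8 genes were found, and all 20 probe sets passed the filter on dim probe sets in each comparison.

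The series measured RNA on 16 Affymetrix expression arrays, 1 sample per array. It compared hematopoietic stem cells (HSC) of young and aged mice at steady state and after transplantation. It also covered pluripotent cells made by reprogramming blood cells (induced pluripotent stem cells, iPSC). All samples were C57Bl6 and wild type. Steady-state HSC were sorted from bone marrow of male mice aged 3 to 4 months (young, 3 arrays) or 21 to 24 months (aged, 3 arrays). Transplanted HSC were sorted from recipients given young marrow (2 arrays) or aged marrow (2 arrays), and the labels give neither the sex nor the ages of those donors and recipients. The iPSC were derived from blood cells of young (2 arrays) or aged origin (2 arrays). Their sample titles give only a hematopoietic origin and do not name HSC as the starting cells. Embryonic stem cells (ESC, 2 arrays) were 1 line from each of 2 suppliers, Open Biosystems and Primogenix. Both kinds of pluripotent cell were grown on mouse embryonic fibroblast feeders and then sorted. The labels call the HSC and iPSC samples biological replicates without naming animals or lines, so p-values measure the spread between these samples.

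DNA methylation in mammals sits mostly on cytosines of CpG dinucleotides. Dnmt1 copies the pattern onto the new strand after replication and is brought to half-methylated sites by Uhrf1. Dnmt3a and Dnmt3b place new methyl groups, and Dnmt3l, which has no catalytic activity of its own, binds and stimulates them in germ and early embryonic cells. Tet1, Tet2 and Tet3 oxidise 5-methylcytosine, the first step of active removal. In blood, Dnmt3a and Tet2 are known as regulators of stem cell self-renewal and their human counterparts are often mutated in clonal expansions, whereas Dnmt3b, Dnmt3l and Tet1 are known for their high expression in pluripotent cells.

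The upstream sequences of the de novo group are shown because its lead probe sets held the widest spans across the samples. A further reason is that the promoter table lists starts of Dnmt3a 84764 bases apart. Each line gives the 250 bases before a RefSeq start on build GRCm38.p6, 5′ to 3′ on the plus strand, with every CpG dinucleotide in capitals. The annotated Dnmt3a locus begins upstream of the first start that the table lists. The windows lie at chr12:3806730-3806979 and chr12:3891494-3891743 for Dnmt3a, chr2:153649199-153649448 for Dnmt3b and chr10:78042037-78042286 for Dnmt3l.
Dnmt3a, first start in the table: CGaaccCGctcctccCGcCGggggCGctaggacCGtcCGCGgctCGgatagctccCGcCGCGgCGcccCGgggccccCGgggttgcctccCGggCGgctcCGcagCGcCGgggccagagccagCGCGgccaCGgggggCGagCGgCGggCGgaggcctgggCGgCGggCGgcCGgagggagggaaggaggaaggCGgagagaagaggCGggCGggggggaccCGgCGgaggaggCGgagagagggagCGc
Dnmt3a, internal start: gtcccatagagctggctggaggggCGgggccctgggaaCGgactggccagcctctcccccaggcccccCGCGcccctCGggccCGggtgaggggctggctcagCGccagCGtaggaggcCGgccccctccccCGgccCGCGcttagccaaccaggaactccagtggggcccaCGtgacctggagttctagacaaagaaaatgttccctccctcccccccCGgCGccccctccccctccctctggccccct
Dnmt3b: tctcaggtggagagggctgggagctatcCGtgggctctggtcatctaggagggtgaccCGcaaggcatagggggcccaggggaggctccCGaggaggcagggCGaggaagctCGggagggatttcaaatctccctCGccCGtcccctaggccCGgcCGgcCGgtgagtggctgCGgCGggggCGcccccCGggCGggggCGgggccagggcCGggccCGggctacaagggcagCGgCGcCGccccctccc
Dnmt3l, first start in the table: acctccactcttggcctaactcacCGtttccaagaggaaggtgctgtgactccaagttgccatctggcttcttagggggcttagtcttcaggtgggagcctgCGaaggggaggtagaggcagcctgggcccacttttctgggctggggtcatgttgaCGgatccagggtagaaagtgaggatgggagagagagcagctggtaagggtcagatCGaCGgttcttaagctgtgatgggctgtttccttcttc

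The first Dnmt3a window held 38 CpG dinucleotides, more than 98.1% of the 32851 promoter windows of that length in the RefSeq table. The internal Dnmt3a window held 15 and the Dnmt3b window 21. The first Dnmt3l window held 5, below the median of 6 over all windows, and the windows of its other 2 starts held 4 and 3. Thus the 2 genes that were high in pluripotent cells on every probe set, Dnmt3b and Dnmt3l, had windows of unlike CpG content. Over all 15 windows of the 8 genes, the richest was that of Tet2 with 51 CpG dinucleotides. The GC box GGGCGG, searched on both strands, was present in 11 of the 15 windows and in 32.7% of all windows. The octamer ATGCAAAT and the E2F sites TTTGGCGC and TTTCCCGC were in 0 of the 15 windows and in 1.6%, 0.417% and 0.895% of all windows. A match is a description of letters and not evidence of binding.

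The loci on GRCm38.p6 are chromosome 9, 20907206 to 20959888, for Dnmt1; chromosome 17, 56303337 to 56323486, for Uhrf1; and chromosome 12, 3801559 to 3914443, for Dnmt3a. Dnmt3b lies on chromosome 2 at 153649411 to 153687730, and Dnmt3l on chromosome 10 at 78042287 to 78063622. Tet1 lies on chromosome 10 at 62804570 to 62887469, Tet2 on chromosome 3 at 133463677 to 133545136 and Tet3 on chromosome 6 at 83362373 to 83457208. The positions of the probes within these genes were not used here.

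All values are log2 of the authors' processed intensities, and a difference of 1 is a 2-fold change. Intensity depends on the probes, so levels are compared between samples for 1 probe set and never between probe sets. The lead probe set of a gene is the one with the highest mean over the 16 arrays. Fits across all 33778 probe sets that passed the filter used limma with Benjamini-Hochberg adjustment, and a call means an adjusted p under 0.05. The median intensity per array lay between 43.4 and 51.8.

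The identity of the samples was checked on markers. The summed intensity of 11 HSC marker genes was 30259 to 35395 on the steady-state HSC arrays, 10548 to 11557 on the transplanted HSC arrays and 684 to 797 on the pluripotent arrays. The 10 pluripotency markers summed to 22657 to 25028 on iPSC and ESC arrays and to 174 to 427 on HSC arrays. The 8 fibroblast or feeder genes summed to 433 to 778 on pluripotent arrays and 340 to 435 on HSC arrays, and the 11 mature blood genes summed to 1409 to 2898 on HSC arrays and 514 to 583 on pluripotent arrays. The 4 transplanted arrays therefore stood apart from the 6 steady-state arrays, with lower sums of HSC markers and higher median intensities (50.2 to 51.8 against 43.4 to 45.0). Transplantation, sex, age at sorting and sample preparation cannot be told apart in that comparison. In samples of this kind, fewer expressing cells and less RNA per cell cannot be told apart.

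**Figure D1:**
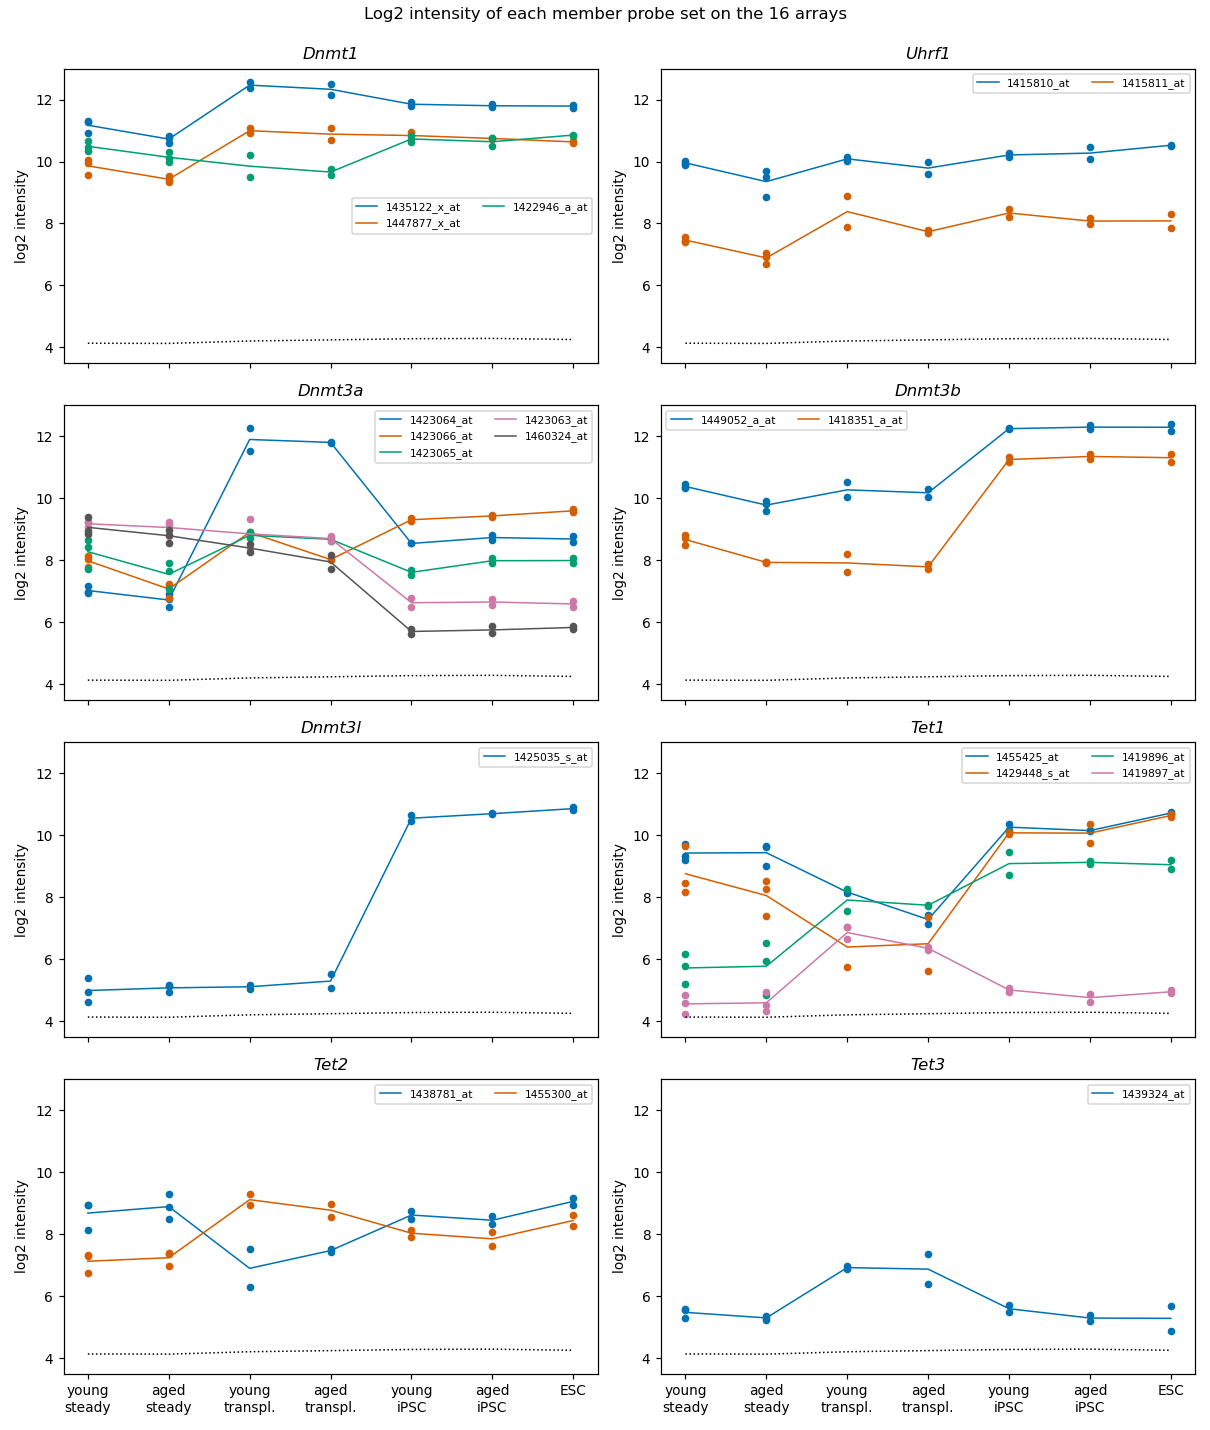
Log2 intensity (vertical axis) of all 20 probe sets on the 16 arrays, by group (horizontal axis) and gene (panels); points are arrays, lines join group means and the dotted line is the mean of the arrays' 25th percentiles. Dnmt3l and Dnmt3b are high in the 3 pluripotent groups, the Dnmt3a probe sets take unlike courses, and 2 of 4 Tet1 and 1 of 2 Tet2 probe sets run against the others of their gene in transplanted HSC.

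Across the 8 lead probe sets, the span between the highest and the lowest group mean was widest for Dnmt3l at 5.87 and Dnmt3a at 5.18, and narrowest for Uhrf1 at 1.17. The others spanned 1.74 for Dnmt1, 2.52 for Dnmt3b, 3.44 for Tet1, 2.16 for Tet2 and 1.64 for Tet3. ESC held the highest mean for Uhrf1, Dnmt3l, Tet1 and Tet2, young transplanted HSC for Dnmt1, Dnmt3a and Tet3, and aged-origin iPSC for Dnmt3b. The highest group was the same for 8 of 8 after quantile normalisation and for 7 of 8 with each array centred on its median. Over the 20 probe sets and all pairs of the 7 groups, the arrays of the pair did not overlap in 321 of 420 pairs. The same count over all probe sets was not made, so this number only describes the members. Groups this small often separate: between aged- and young-origin iPSC, 32.2% of all probe sets had no overlap.

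Dnmt1, the maintenance methyltransferase, was lowest in aged steady-state HSC on its lead probe set 1435122_x_at. The values were 10.92, 11.28 and 11.32 in young and 10.61, 10.81 and 10.74 in aged steady-state HSC, then 12.56 and 12.37 in young and 12.15 and 12.51 in aged transplanted HSC. They were 11.78 and 11.92 in young-origin iPSC, 11.84 and 11.76 in aged-origin iPSC and 11.74 and 11.84 in ESC. All transplanted arrays lay above all pluripotent arrays, and these above all steady-state arrays; the 3 pluripotent groups overlapped. Probe set 1447877_x_at gave 9.58, 10.06 and 9.94 in young and 9.34, 9.53 and 9.41 in aged steady-state HSC, against 10.69 to 11.07 in transplanted HSC and 10.59 to 10.96 in pluripotent cells. It gave the same order of group means as the lead probe set, but the transplanted and iPSC arrays overlapped, and both ESC arrays lay below all iPSC arrays.

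The third Dnmt1 probe set, 1422946_a_at, had another order, with transplanted HSC lowest. It gave 10.33, 10.66 and 10.48 in young steady-state HSC, 9.99, 10.30 and 10.12 in aged steady-state HSC, 10.21 and 9.50 in young transplanted HSC and 9.56 and 9.76 in aged transplanted HSC. The pluripotent arrays lay between 10.52 and 10.87 and overlapped young steady-state HSC. Young transplanted replicate 1 lay within the range of aged steady-state HSC, and the other 3 transplanted arrays lay below all steady-state arrays.

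Uhrf1, the partner that recognises half-methylated CpG sites, varied least among the lead probe sets. Its lead probe set 1415810_at gave 10.03, 9.89 and 9.95 in young and 8.86, 9.70 and 9.50 in aged steady-state HSC. It gave 10.15 and 10.02 in young and 9.61 and 9.97 in aged transplanted HSC, 10.13 and 10.29 in young-origin and 10.07 and 10.47 in aged-origin iPSC, and 10.54 and 10.51 in ESC. The aged steady-state arrays were all below the young ones, replicate 1 by far the most, whereas young transplanted HSC and the iPSC groups overlapped. Probe set 1415811_at gave 7.58, 7.39 and 7.42 in young and 7.05, 6.93 and 6.69 in aged steady-state HSC, 7.89 and 8.88 in young and 7.78 and 7.69 in aged transplanted HSC, and 7.86 to 8.46 in pluripotent cells. On this probe set the steady-state arrays lay below all others, and the aged below the young.

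Dnmt3a, a de novo methyltransferase, gave no single pattern, because its 5 probe sets disagreed although the platform annotation lists the same source sequence for all of them. The lead probe set 1423064_at was high in transplanted HSC. Its values were 7.17, 6.97 and 6.94 in young and 6.91, 6.49 and 6.77 in aged steady-state HSC, 12.27 and 11.53 in young and 11.79 and 11.83 in aged transplanted HSC. They were 8.55 and 8.55 in young-origin iPSC, 8.83 and 8.65 in aged-origin iPSC and 8.78 and 8.60 in ESC. The transplanted arrays lay above all others, the pluripotent arrays came next, and the steady-state arrays were lowest.

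Probe set 1423066_at of Dnmt3a was instead highest in ESC and separated the ages in HSC. It gave 7.80, 8.13 and 8.03 in young and 7.20, 6.80 and 7.23 in aged steady-state HSC. It gave 8.89 and 8.92 in young and 8.02 and 8.04 in aged transplanted HSC, 9.36 and 9.26 in young-origin and 9.40 and 9.47 in aged-origin iPSC, and 9.65 and 9.55 in ESC. Aged arrays were below young arrays without overlap in both HSC settings, and aged transplanted HSC lay within the range of young steady-state HSC.

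The other 3 Dnmt3a probe sets were not highest in pluripotent cells. Probe set 1423063_at gave 8.80 to 9.25 on the steady-state arrays, 8.39 to 9.33 on the transplanted arrays and 6.48 to 6.78 on the pluripotent arrays. Probe set 1460324_at, which gave 8.56 to 9.42, 7.72 to 8.54 and 5.63 to 5.87 in the same order, had the lowest pluripotent values of the 5 relative to its own HSC values. Probe set 1423065_at gave 7.09 to 8.66 in steady-state HSC, 8.63 to 8.90 in transplanted HSC and 7.54 to 8.08 in pluripotent cells. Steady-state and pluripotent arrays overlapped on 1423065_at and were separate on the other 4.

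Dnmt3b, the de novo methyltransferase typical of early embryonic cells, was high in iPSC and ESC on both probe sets. The lead probe set 1449052_a_at gave 10.33, 10.45 and 10.37 in young and 9.82, 9.61 and 9.92 in aged steady-state HSC, 10.52 and 10.04 in young and 10.32 and 10.04 in aged transplanted HSC. It gave 12.23 and 12.27 in young-origin iPSC, 12.37 and 12.24 in aged-origin iPSC and 12.19 and 12.41 in ESC. Probe set 1418351_a_at gave 8.49, 8.71 and 8.82 in young and 7.96, 7.94 and 7.91 in aged steady-state HSC, 7.62 to 8.21 in transplanted HSC and 11.17 to 11.44 in pluripotent cells. On both probe sets the 6 pluripotent arrays overlapped each other and lay above all 10 HSC arrays, and aged steady-state HSC lay below young steady-state HSC.

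Dnmt3l, the inactive cofactor, had 1 probe set, 1425035_s_at, and was near the dim end of the arrays in every HSC sample. Its HSC values were 5.39, 4.63 and 4.95 in young and 5.16, 5.13 and 4.94 in aged steady-state HSC, 5.18 and 5.04 in young and 5.07 and 5.52 in aged transplanted HSC. The pluripotent values were 10.66 and 10.45 in young-origin iPSC, 10.67 and 10.72 in aged-origin iPSC and 10.91 and 10.82 in ESC. The HSC means lay between 0.86 and 1.05 above the arrays' 25th percentile of all probe sets, and the 4 HSC groups overlapped. The pluripotent means lay 6.27 to 6.61 above it, in the order ESC, aged-origin and young-origin iPSC, with no overlap.

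Tet1, the oxygenase known from pluripotent cells, was highest in ESC on its lead probe set 1455425_at. The values were 9.21, 9.72 and 9.35 in young and 9.63, 9.02 and 9.67 in aged steady-state HSC, 8.21 and 8.13 in young and 7.43 and 7.13 in aged transplanted HSC. They were 10.37 and 10.16 in young-origin iPSC, 10.14 and 10.17 in aged-origin iPSC and 10.69 and 10.75 in ESC. Both steady-state groups overlapped, both transplanted groups were lower, and aged lay below young transplanted HSC. Probe set 1429448_s_at had the same order of cell types, with 7.39 to 9.64 in steady-state HSC, 5.64 to 7.37 in transplanted HSC and 9.77 to 10.70 in pluripotent cells, and the widest spread within groups (SD up to 1.23, n = 2, in aged transplanted HSC).

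The other 2 Tet1 probe sets, which the annotation assigns to 1 shared source sequence, behaved otherwise in transplanted HSC. Probe set 1419896_at gave 4.84 to 6.53 in steady-state HSC, 7.56 to 8.26 in transplanted HSC and 8.71 to 9.47 in pluripotent cells, with no overlap between these 3 kinds of sample. Probe set 1419897_at gave 4.25 to 4.93 in steady-state HSC, 6.31 to 7.06 in transplanted HSC and 4.64 to 5.09 in pluripotent cells. On 1419897_at the steady-state means were 0.43 and 0.47 above the 25th percentile, and the pluripotent means were 0.73, 0.47 and 0.70 above it, so both kinds of sample were close to the dim end of the arrays there.

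Tet2, the family member known for its role in blood, had 2 probe sets that ran in opposite directions. The lead probe set 1438781_at gave 8.15, 8.96 and 8.94 in young and 9.31, 8.48 and 8.89 in aged steady-state HSC, 7.52 and 6.28 in young and 7.41 and 7.53 in aged transplanted HSC. It gave 8.74 and 8.50 in young-origin iPSC, 8.32 and 8.58 in aged-origin iPSC and 9.17 and 8.96 in ESC. Probe set 1455300_at gave 6.74 to 7.41 in steady-state HSC, 8.56 to 9.29 in transplanted HSC and 7.63 to 8.62 in pluripotent cells. The transplanted arrays were lowest on the first and, apart from an overlap with ESC, highest on the second. Steady-state HSC and iPSC overlapped on the first and were separate on the second.

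Tet3 had 1 probe set, 1439324_at, at 5.24 to 5.59 in steady-state HSC, 6.87 and 6.98 in young and 7.35 and 6.40 in aged transplanted HSC, and 4.89 to 5.72 in pluripotent cells. The transplanted arrays lay above the other 12, whose 5 groups neighboured one another with overlap. Outside transplanted HSC the group means lay only 1.00 to 1.34 above the 25th percentile, so Tet3 was close to the dim end there.

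Whether these enzymes change with age in undisturbed stem cells was asked in the steady-state HSC. No member was called between aged and young arrays, and 0.601% of all probe sets were called. The values of Dnmt1, Uhrf1, Dnmt3b and of probe sets 1423064_at and 1423066_at of Dnmt3a were lower on every aged array than on any young array, and those of the 3 TET genes were not. These were 9 of the 20 probe sets, where 8.17% of all probe sets had aged arrays all below young arrays. At an unadjusted p under 0.05, limma put 8 of 20 members lower with age, against 1.97% of all probe sets, and none higher. The median difference was -0.33 over the 20 probe sets and -0.02 over all, and 14 of 20 were below 0, against 54.4% of all.

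The age differences nearest to a call were those of Dnmt3a 1423066_at and Dnmt3b. Dnmt3a 1423066_at differed by -0.91 (SE 0.18, n = 3 and 3), with an adjusted p of 0.0698, and its adjusted p ranged from 0.00673 to 0.352 over 20 alternative analyses, 2 of which called it. The Dnmt3b probe set 1418351_a_at differed by -0.74 (SE 0.19, adjusted p 0.25) and 1449052_a_at by -0.60 (SE 0.18, adjusted p 0.45). For Dnmt1 the differences were -0.45 on the lead probe set (SE 0.18), -0.43 (SE 0.19) and -0.36 (SE 0.21), with adjusted p of 0.878 or above. For Uhrf1 they were -0.60 (SE 0.23) and -0.58 (SE 0.24), with adjusted p of 0.768 or above. The Tet2 probe sets differed by 0.21 (SE 0.35) and 0.11 (SE 0.23), and the lead Tet1 probe set by 0.01 (SE 0.23), each with intervals that include 0.

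Cell cycle genes ran in the same direction as the methyltransferases. Of 21 cell cycle genes measured, 20 had a difference below 0 in aged steady-state HSC, with a median of -0.47. None was called by limma, and 4 of 21, all below 0, had an unadjusted p under 0.05. Their summed intensity was 30163 to 37539 on young and 20203 to 28368 on aged steady-state arrays, without overlap. Dnmt1 and Uhrf1 act at replication forks, and the part of the cell cycle difference in their values was not tested.

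The same age comparison in transplanted HSC asks whether the differences persist in a new host. No member was called (0.779% of all probe sets were), and 2 of 20 had an unadjusted p under 0.05 in limma, against 13.9% of all probe sets. These were Dnmt3a 1423066_at, at -0.88 (SE 0.22, n = 2 and 2, adjusted p 0.107), and the lead Tet1 probe set, at -0.89 (SE 0.28, adjusted p 0.185). On both, the 2 aged arrays lay below the 2 young arrays. Aged and young arrays did not overlap on 6 of the 20 probe sets, all lower with age. Over all probe sets, 31.9% had no overlap, in either direction. The Dnmt3b probe sets differed by only -0.09 (SE 0.23) and -0.13 (SE 0.23), with aged and young arrays overlapping. Uhrf1 1415811_at differed by -0.65 (SE 0.30, adjusted p 0.377), a value that moved with the young array left out. Without young transplanted replicate 1 it was -1.14 (adjusted p 0.0316) and without replicate 2 it was -0.15 (adjusted p 0.745), each time with 1 young array, which is assumed to vary like the other groups. All 21 cell cycle genes had a difference below 0 in aged transplanted HSC, with a median of -0.45. None was called, and 4 of 21 had an unadjusted p under 0.05. Their summed intensity was 34004 to 38062 on young and 20696 to 28077 on aged transplanted arrays.

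The difference of the age effects between the 2 settings was tested itself. No member was called, as were 0.0533% of all probe sets, and 1 of 20 had an unadjusted p under 0.05, against 9.05% of all. That member was the lead Tet1 probe set, at -0.90 (transplanted minus steady-state, SE 0.36, adjusted p 0.5). Dnmt3a 1423066_at had a difference of 0.03 (SE 0.28), that is, nearly the same age difference in both settings. With the age effect averaged over both settings, a comparison added after the separate effects were seen, Dnmt3a 1423066_at was the only member called, against 0.862% of all probe sets. It was lower with age by a log2 difference of -0.89 (SE 0.14, adjusted p 0.0228) and was lower on all aged arrays within each setting. The call was made in 11 of 20 alternative analyses. It was lost with the replicate number as a block (adjusted p 0.157, or 0.109 with the transplanted pairing crossed) and with at least a 2-fold change required. It was also lost, with an adjusted p of 0.0548 to 0.0809, without aged transplanted replicate 2, without any 1 of the 3 aged steady-state arrays and without young steady-state replicate 2 or 3. For Uhrf1 1415811_at the averaged effect was -0.86 without young transplanted replicate 1 (adjusted p 0.0192) and -0.36 without replicate 2 (adjusted p 0.162), again with 1 array in that group. The other 4 Dnmt3a probe sets were not called and differed by -0.20, -0.43, -0.14 and -0.36. Of all 20 members, 18 were below 0 on this average, against 51.8% of all probe sets. At an unadjusted p under 0.05, limma put 6 members lower and none higher, against 4101 of 33778 probe sets in either direction. Of 21 cell cycle genes, 0 were above 0 and 10 had an unadjusted p under 0.05.

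**Figure D2:**
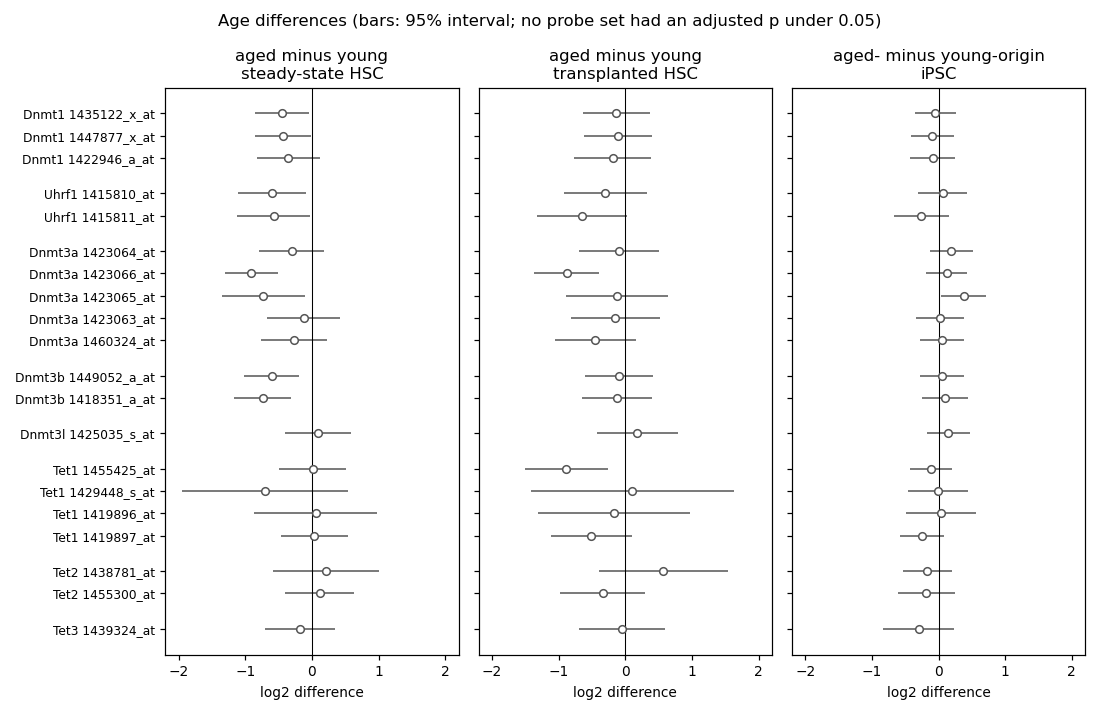
Log2 age difference (horizontal axis) of each member probe set (vertical axis) in steady-state HSC, transplanted HSC and iPSC, with its 95% interval from limma. Most steady-state values lie below 0, no probe set was called, and Dnmt3a 1423066_at lies near -0.9 in both HSC settings and near 0.1 in iPSC.

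Reprogramming was followed by comparing iPSC of aged and young origin. No member was called, as were 0.0118% of all probe sets, and 1 of 20 had an unadjusted p under 0.05 in limma, against 4.49% of all. That member was Dnmt3a 1423065_at, at 0.38 (SE 0.15, n = 2 and 2, adjusted p 0.994). Dnmt3a 1423066_at differed by 0.12 (SE 0.14), with a 95% interval that includes 0, and its 2 aged-origin arrays lay above its 2 young-origin arrays. The median over the 20 probe sets was 0.01, beside -0.03 over all. The difference of the age effects, iPSC minus steady-state HSC, was also added after the separate effects were seen. It called no member (0.243% of all probe sets), and 4 of 20 had an unadjusted p under 0.05, against 3.44% of all. These were both Dnmt3b probe sets, at 0.65 (SE 0.25) and 0.83 (SE 0.27), Dnmt3a 1423065_at, at 1.11 (SE 0.38), and Dnmt3a 1423066_at, at 1.03 (SE 0.24, adjusted p 0.163).

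The iPSC and ESC were compared to ask how near the reprogrammed cells come to an embryonic state. No member was called, as were 0.0947% of all probe sets, and 4 of 20 had an unadjusted p under 0.05 in limma, against 12.5% of all. These 4 were all TET probe sets, lower in iPSC. The Tet1 probe sets 1455425_at and 1429448_s_at differed by -0.51 (SE 0.12, adjusted p 0.194) and -0.56 (SE 0.17, adjusted p 0.252). Both Tet2 probe sets were similar, at -0.53 (SE 0.14, adjusted p 0.223) and -0.50 (SE 0.17, adjusted p 0.279). On these 4 probe sets the 4 iPSC arrays lay below both ESC arrays. The separation was not particular to TET genes. Of the 20 probe sets, 9 had no overlap between iPSC and ESC arrays, 8 of them lower in iPSC, against 23.7% of all probe sets. The fibroblast or feeder genes had a median of -0.47 in this comparison, with 1 of 7 above 0, and the 8 measured summed to intensities of 433 to 778 on iPSC and 696 to 720 on ESC arrays; their part in the TET differences was not tested. With an intensity trend and a robust prior, Tet1 1455425_at was called (adjusted p 0.0458). Dnmt3b differed by -0.02 (SE 0.12) and -0.01 (SE 0.13), and Dnmt3l by -0.24 (SE 0.12, adjusted p 0.463).

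The iPSC were then set against the steady-state HSC. The sample titles do not name HSC as the source of the iPSC, so a rise or fall here is a difference between groups. Of the 20 probe sets, 16 were called, 14 higher and 2 lower in iPSC, where 67.4% of all probe sets were called and 37.2% were called higher. Dnmt3l rose by 5.59 (SE 0.15, n = 4 and 6, adjusted p 1.39e-12). Its HSC values were near the dim end, and with a pseudocount of 32 the difference was 4.63, so the size of the rise depends on that floor. Dnmt3b rose by 2.19 (SE 0.13) and 3.00 (SE 0.13), or 4.57-fold and 8.0-fold. The maintenance pair rose less: Dnmt1 by 0.88 (SE 0.12), 1.15 (SE 0.13) and 0.37 (SE 0.15), and Uhrf1 by 0.59 (SE 0.16) and 1.03 (SE 0.18). The smallest of these, Dnmt1 1422946_a_at (adjusted p 0.0383), lost its call when each array was centred on its median (adjusted p 0.0758) and without any 1 of 9 arrays (adjusted p 0.0505 to 0.136). These were both ESC arrays, both young-origin iPSC arrays, aged-origin iPSC replicate 2, and replicates 1 and 3 of aged and of young steady-state HSC.

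Dnmt3a was called in both directions in this comparison, the only member that was. It rose on 1423064_at by 1.77 (SE 0.15) and on 1423066_at by 1.84 (SE 0.12). It fell on 1423063_at by 2.48 (SE 0.17) and on 1460324_at by 3.20 (SE 0.15), and 1423065_at differed by -0.11 (SE 0.19, adjusted p 0.612). With a pseudocount of 32 the difference on 1460324_at was -2.61. Over all genes with at least 2 probe sets tested, 17.9% were called in both directions. Of the TET genes, Tet1 rose by 0.77 (SE 0.15), 1.67 (SE 0.38) and 3.36 (SE 0.30) on 3 probe sets, the last of them by 2.74 with a pseudocount of 32, and 1419897_at differed by 0.31 (SE 0.15, adjusted p 0.091). Tet2 rose on 1455300_at by 0.76 (SE 0.17), while its lead probe set differed by -0.25 (SE 0.24, adjusted p 0.372). Tet3 differed by 0.06 (SE 0.19, adjusted p 0.803), with a 95% interval from -0.37 to 0.48. It was close to the dim end in both kinds of sample.

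Transplanted and steady-state HSC differed in most members, but often in opposite directions within 1 gene. This comparison shares its 6 steady-state arrays with that of iPSC. Of the 20 probe sets, 16 were called, 10 higher and 6 lower in transplanted HSC, where 66.6% of all probe sets were called and 30.6% were called higher. After quantile normalisation the split was 11 higher and 4 lower. The median difference over all probe sets was -0.09 as deposited and -0.29 with each array centred on its median, and no called member changed sign under either scaling. Dnmt3a 1423064_at rose by 4.98 (SE 0.17, 31.6-fold, n = 4 and 6), the largest difference among the members. The same gene rose by 0.93 (SE 0.14) on 1423066_at and 0.83 (SE 0.22) on 1423065_at, fell by 0.76 (SE 0.17) on 1460324_at, and differed by -0.34 (SE 0.19) on 1423063_at without a call.

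Dnmt1, Tet1 and Tet2 were also called in both directions. Dnmt1 rose by 1.45 (SE 0.14) and 1.30 (SE 0.15) and fell by 0.56 (SE 0.17) on 1422946_a_at, a call that was lost after quantile normalisation (adjusted p 0.104). Tet1 fell by 1.71 (SE 0.18) on 1455425_at, fell by 1.96 (SE 0.44) on 1429448_s_at and rose by 2.08 (SE 0.33) on 1419896_at. It rose by 2.03 (SE 0.18) on 1419897_at, which was dim in steady-state HSC, and by 1.21 there with a pseudocount of 32. Tet2 fell by 1.60 (SE 0.28) on the lead probe set and rose by 1.76 (SE 0.18) on 1455300_at. With Dnmt3a, this made 4 of the 6 member genes with several probe sets, where 38.3% of all such genes were called in both directions. Tet3, dim in steady-state HSC, rose by 1.51 (SE 0.19), or by 1.04 to 1.75 over 21 alternative analyses. Uhrf1 1415811_at rose by 0.88 (SE 0.19). The lead Uhrf1 probe set differed by 0.28 (SE 0.18, adjusted p 0.188) and was not called, but was called after quantile normalisation, at 0.51 (adjusted p 0.0318).

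Of the remaining members, Dnmt3l and 1 of 2 Dnmt3b probe sets were close to their steady-state levels after transplantation. Dnmt3l differed by 0.17 (SE 0.18, adjusted p 0.411) and Dnmt3b 1449052_a_at by 0.14 (SE 0.15, adjusted p 0.405). Dnmt3b 1418351_a_at fell by 0.45 (SE 0.15, adjusted p 0.0235), which was lost after quantile normalisation (adjusted p 0.086), without young transplanted replicate 1 (adjusted p 0.065), without aged transplanted replicate 1 (adjusted p 0.0649) and without young steady-state replicate 3 (adjusted p 0.0568). The 11 HSC markers all fell in the same comparison, with a median of -1.74, and the part of that shift in the members' differences was not tested.

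**Figure D3:**
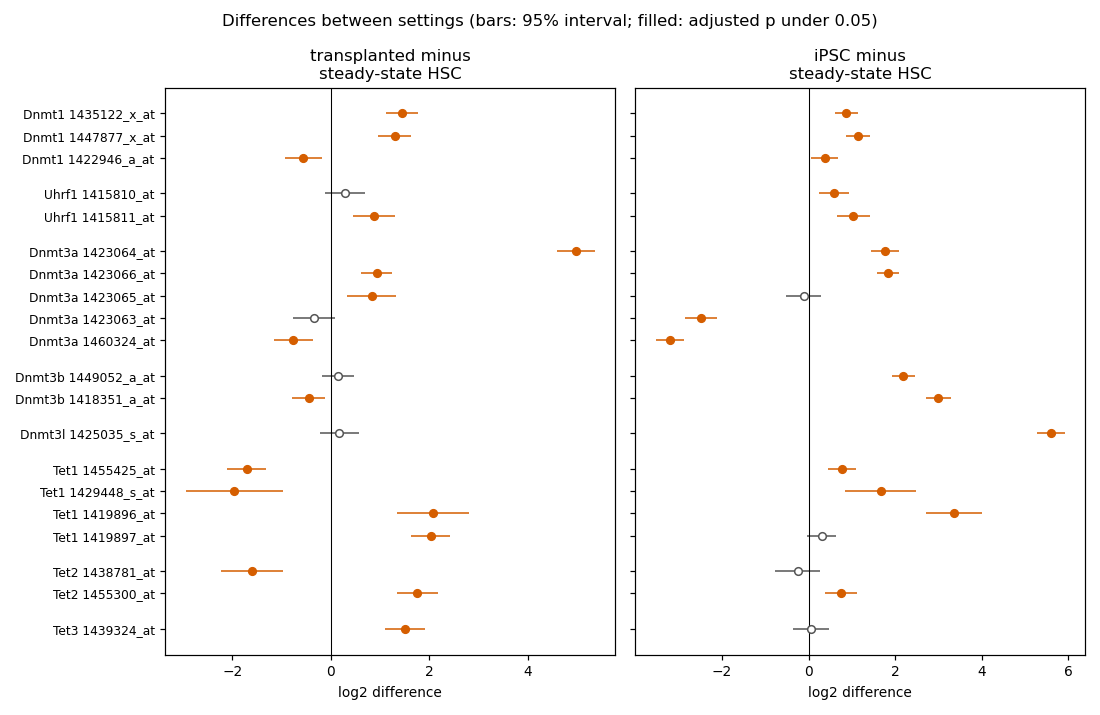
Log2 difference (horizontal axis) of each member probe set (vertical axis), transplanted minus steady-state HSC on the left and iPSC minus steady-state HSC on the right, with 95% intervals from limma; filled points were called. Dnmt3a 1423064_at is highest on the left at 4.98 and Dnmt3l on the right at 5.59, and the Dnmt3a, Tet1 and Tet2 probe sets fall on both sides of 0 on the left.

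Other genes of the pathway were taken from lists of 1 lead probe set per gene, of which 105 of 118 listed genes, markers included, were on the array. In iPSC against steady-state HSC, most genes of proteins that bind methylated CpG sites fell: of 8 measured, 6 fell and 2 rose, with a median of -2.47, beside 0.16 over all probe sets, of which 37.2% were called higher and 30.2% lower. The zinc finger readers Zbtb4 and Zbtb38 differed by -4.58 and -2.71. Zbtb4 was at 4.15 to 4.59 in iPSC, about the 25th percentile of those arrays, and differed by -3.29 with a pseudocount of 32. The methyl-CpG binding proteins Mbd1 and Mbd2 differed by -2.86 and -2.33. Mbd3, which belongs to the NuRD complex, rose by 1.28, and the repair glycosylase Mbd4 by 0.63.

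Partners of the methyltransferases mostly went the other way in that comparison. Of 14 measured, 10 were called higher and 1 lower, and 11 were above 0, with a median of 1.10. Dppa3, which protects the maternal genome of the zygote from demethylation, rose by 4.33, or 3.41 with a pseudocount of 32. Trim28, a corepressor recruited by KRAB zinc finger proteins, rose by 2.17, the remodeller Hells by 1.49 and Dmap1, which binds Dnmt1, by 1.29. Cdca7, which recruits Hells, was the gene of this list called lower, by 0.86.

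The genes of base excision repair and of TET regulation were divided. Of 15 measured, 4 were called higher and 5 lower in iPSC, and 10 were above 0, with a median of 0.05. The repair genes Xrcc1 and Parp1 rose by 1.56 and 1.36, and Ogt, the O-GlcNAc transferase that binds TET proteins, and Cxxc5 differed by -2.07 and -1.12. In the cycle that supplies the methyl donor S-adenosylmethionine, 5 of 7 were called higher and 1 lower, with a median of 1.22. Shmt2, Ahcy and Shmt1 rose by 2.05, 1.40 and 1.12, and Mat2b fell by 1.43. Of the cell cycle genes 18 of 21 were called higher and 0 lower in iPSC, and 20 were above 0. Their median was 0.98, and Ccne1 rose most clearly, by 3.30.

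Between transplanted and steady-state HSC the listed genes were called in both directions, where 30.6% of all probe sets were called higher and 36% lower. The methyl-CpG readers had 2 higher and 5 lower calls of 8 (median -0.92), with Mbd2 higher by 1.83 and Mbd1 lower by a log2 difference of -2.04. The partners had 4 higher and 8 lower of 14 (median -0.48), with Ehmt2 at 1.40 and Hells at -2.30. Repair and TET partners had 2 higher and 8 lower of 15 (median -0.85), led by Cxxc5 at -2.73. The S-adenosylmethionine genes had 2 higher and 4 lower of 7 (median -0.56), and the cell cycle genes 6 higher and 7 lower of 21 (median -0.33). The median over all probe sets was -0.09.

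With age, a single listed gene was called. Gadd45g, a stress-induced gene linked to active demethylation, was at 6.39 to 6.81 in young and 8.77 to 8.85 in aged steady-state HSC. It rose by 2.26 in aged steady-state HSC (SE 0.28, adjusted p 0.00852). The call was made in 17 of 21 alternative analyses, with adjusted p from 0.000741 to 0.0586. It was lost without aged steady-state replicate 1 (adjusted p 0.0527) or 3 (0.0542) and without young steady-state replicate 1 (0.0518) or 3 (0.0586). In transplanted HSC it differed by 0.07 (adjusted p 0.958), at 5.67 to 6.92 in young and 6.15 to 6.59 in aged. The difference of the age effects, transplanted minus steady-state HSC, was not called for Gadd45g. It was called for 0 of the 15 measured genes of its list, against 0.0533% of all probe sets. The other 4 lists had 0 calls with age in either setting. At an unadjusted p under 0.05, limma found Shmt1 of the S-adenosylmethionine list in steady-state HSC, at -0.49, and 0 of the 8 readers and 14 partners. In transplanted HSC it found Mtr of the same list, at -0.78, and the repair genes Neil3 and Neil1 and the dehydrogenase Idh1, at -2.10, -2.45 and -0.70, none of them called.

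**Figure D4:**
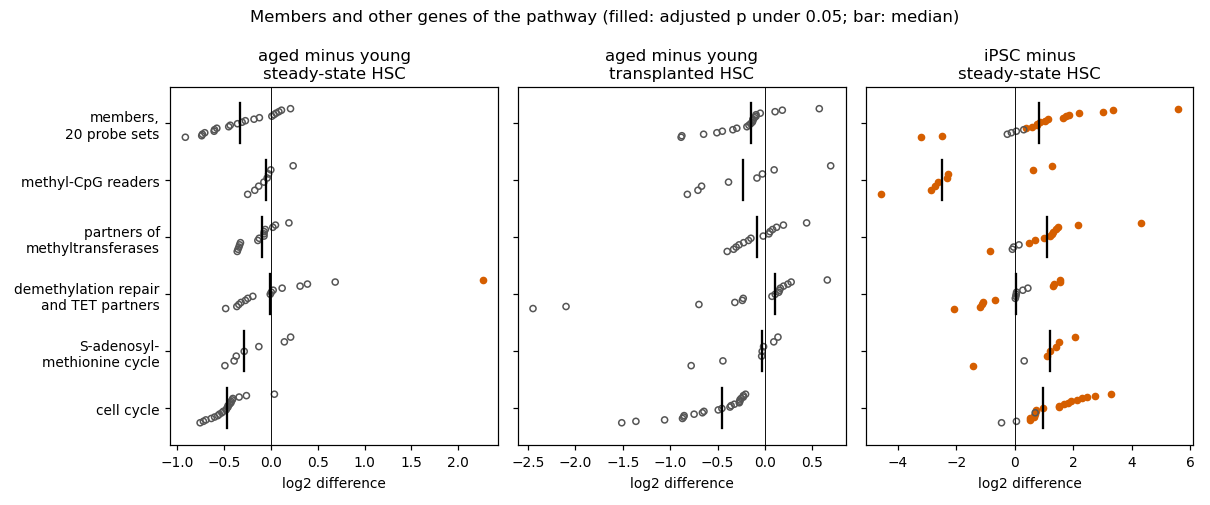
Log2 differences (horizontal axis) of the 20 member probe sets and of the listed pathway genes (rows) with age in steady-state and transplanted HSC and between iPSC and steady-state HSC; each point is a probe set, filled where called, and bars mark medians. Nearly all cell cycle genes lie below 0 in both age comparisons, and 6 of 8 methyl-CpG readers are called lower in iPSC.

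The genes whose log2 profile over the 16 arrays followed that of a member most closely were sought among lead probe sets. The distance was the root mean square difference between profiles centred on their own mean. Members whose group means spanned at least 2 were used. Nearest to Dnmt3l were Dppa4 (0.22), Lifr (0.23) and Elavl2 (0.25), and nearest to Dnmt3b were Zbtb32 (0.22), Fanca (0.23) and Grwd1 (0.23). Nearest to Dnmt3a were AY036118 (0.28), Pfn1 (0.36) and Gm6958 (0.36), on the lead probe set that is high in transplanted HSC. Nearest to Tet1 were Brpf1, Kmt2b and Cactin (each 0.21), and nearest to Tet2 were Plxna3, Zzef1 and Klhl8 (each 0.28). The points share the same 16 arrays, and the distances are a description without a test.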

How the data were processed

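Sorted cells were profiled on 1-colour Affymetrix arrays. Per the labels' protocols, 10000 cells were used per array, with RNA from a QIAGEN microRNeasy kit and biotin-labelled cRNA. The deposited table holds the authors' processed intensities on a linear scale (4.53 to 31493); the sources used here do not give how these were summarised or normalised. Precision is limited by how few arrays there are.

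The table has 45101 probe sets, of which 64 controls were left out. Of the other 45037, 34945 had 1 gene symbol in the platform annotation, 932 had several and 9160 were unnamed here. Log2 intensities were fitted per probe set with limma 3.58.1 (R 4.3.3; lmFit and eBayes) over the 10 HSC arrays, the 6 pluripotent arrays or, for iPSC against HSC, all 16. Probe sets with a mean below the 25th percentile were left out. Scripts were tested on simulated data. Alternatives changed the pseudocount, filter, scaling, prior, fold minimum, probe set rule, arrays fitted and replicate block, and left out each array in turn. Deviations of same-numbered arrays had correlations of -0.37 to 0.20 for the steady-state numbers, -0.14 for the transplanted and -0.12 for the iPSC numbers. With so few arrays per group, these values cannot decide whether the numbers pair the samples.

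Members are all probe sets of the 8 symbols; from each list up to 4 called genes were named by p, and others where a result turns on them. The members, lists and tests were chosen with earlier results of these data known. Sequences and loci are from RefSeq (GRCm38.p6), where all 8 symbols matched. Protein sequences were not used here.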

Additional observations from a re-analysis of the deposited data

Results flagged for a closer look

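Age differences that pointed opposite ways in 2 settings, with no overlap between aged and young arrays in either, were seen on 2 probe sets of Dnmt3a. The share of all probe sets that meet this rule was not counted. Non-overlap alone, in either direction, held for 15.2% of all probe sets at steady state. It held for 31.9% after transplantation and for 32.2% between the iPSC origins. On 1423066_at the difference was -0.91 in steady-state HSC and 0.12 in iPSC, a gap of 1.03 (adjusted p 0.163 in limma, not called). On the same probe set it was -0.88 in transplanted HSC, a gap to iPSC of 1.00, which was not tested. On 1423064_at the difference was -0.31 in steady-state HSC and 0.19 in iPSC, a gap of 0.50 (adjusted p 1.00, not called). No group held enough arrays for a test of single outlying arrays.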

How the results depend on the processing

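Counts are of the 20 member probe sets called by limma. No member called in the main or the alternative analysis changed direction. The steady-state age count went from 0 to 1 with a pseudocount of 32 and with all 16 arrays in 1 fit, in both cases Dnmt3a 1423066_at. The transplanted age count went from 0 to 1 with all 16 arrays in 1 fit, and ranged from 0 to 1 with arrays left out in turn. The iPSC against ESC count went from 0 to 1 with an intensity trend and robust prior. With 1 probe set per gene, 5 of 8 genes were called between transplanted and steady-state HSC and 6 of 8 between iPSC and steady-state HSC. In the main fits, 66.6% and 67.4% of all probe sets were called in these comparisons. With at least a 2-fold change required, the transplanted count was 10. The shares of all probe sets called with 1 per gene or with the 2-fold minimum are not given here. The averaged age count of 1 became 0 with 1 probe set per gene, with a 2-fold minimum and with the replicate block, crossed or not, and ranged from 0 to 2 with arrays left out in turn. With the replicate block the adjusted p of Dnmt3a 1423066_at for the averaged age effect was 0.157, and 0.109 with the transplanted pairing crossed; the block also ended the call of Dnmt1 1422946_a_at between iPSC and steady-state HSC (adjusted p 0.0557) and no other call of a member. Non-overlapping pairs of groups numbered 314 after quantile normalisation and 319 after centring, of 420, again without a count over all probe sets. The causes of these changes were not tested, except that fewer probe sets enter with 1 per gene. Dim signal limits Dnmt3l in HSC. It also limits Tet1 1419897_at and Tet3 in steady-state HSC and pluripotent cells. The number of arrays limits every age comparison.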
